A study of Mus musculus with 8 samples.

Results

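The mouse dorsal root ganglia described here were compared at day 30 (30d) and day 3 (3d) after a paw injection of carrageenan, to find which genes moved between the first days of the inflammation and a late time point. The comparison uses 4 of the 8 libraries of the series, namely both libraries of each of these time points. The other 4 libraries, from naive untreated mice (0d) and from day 1 (1d), placed each gene against its earlier levels and took part in the estimate of the spread. Of the 24421 genes in the table of counts, 14948 reached at least 1 CPM (counts scaled to a common library size) in 2 or more of the 8 libraries and were tested.

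All mice were wild type (WT) by the sample titles, and C57BL/6J and 8 weeks old by the series' design text, while the study's methods describe male C57/Bl6JRj mice over a range of ages that begins there. Mice of 1d, 3d and 30d received 20 µL of 1% carrageenan in the left hind paw, and 0d mice were not injected. Each library held RNA of the left L3 to L5 ganglia pooled from 2 to 3 mice, so a replicate is a pool and not a single animal. No group was injected with vehicle, and the 30d mice lived 27 days longer after injection than the 3d mice without a naive group of their age, so time since injection and age cannot be told apart. The 4 libraries compared held between 58593332 and 73580338 counts.

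Dorsal root ganglia hold the cell bodies of the sensory neurons whose endings lie in the skin and deep tissue of the limb. Carrageenan, a seaweed polysaccharide, inflames the injected paw, and the ganglia are reached by signals from that tissue, taken up by nociceptor endings, and by circulating cytokines. Nociceptors answer with peptides such as CGRP and substance P, while glia and resident macrophages around the neurons carry much of the interferon and antigen presentation programme.

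Between 3d and 30d, 160 genes changed, 1.07% of those tested, at an adjusted p under 0.05 in edgeR's quasi-likelihood test. Of these, 120 fell (0.803% of the genes tested) and 40 rose (0.268%). The genes that fell included sensory peptide precursors, the growth factor Bdnf, interferon-stimulated genes and genes that respond to glucocorticoids. Genes for MHC class II chains were among those that rose. Changes were small, and their sizes on the log2 scale had a median of 0.36. Only 8 genes changed by more than 1, Bdnf, Ifit1, Tyrp1, Fam107a, Myh1, Prr15, Cdca5 and Mt2, and 29 changed by less than 0.25. In all 120 genes that fell both 30d libraries lay below both 3d libraries, and in all 40 that rose both lay above, while 23.6% and 24.3% of all tested genes had libraries apart in these directions. Without adjustment, 14% of the genes had a p under 0.05 (7.17% lower and 6.88% higher).

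The number of calls depended on both 3d libraries, which were the closest pair of the series. Replicates of 3d differed by 0.107 on average on the log2 scale and those of 30d by 0.201, while 0.166 and 0.156 were found for 0d and 1d. Sampling noise was exceeded in every pair (chi-square over degrees of freedom 7.82 for 3d and 28.05 for 30d). The 3d libraries were counted as 2 replicates because the labels name them so, and this excess does not show that they came from separate pools. Without 3d replicate 1 the test called 11 genes, all lower at 30d, and without 3d replicate 2 it called 13, of which 11 were lower. With either 30d library left out instead, 412 genes were called without 30d replicate 1 and 107 without 30d replicate 2. The 9 genes called under every setting tried were Oasl2, Bdnf, Nptx1, Ifit1, Fbln5, Matn2, Ptgir, Etv5 and Itgb8, and all 9 fell. No gene that rose was called under every setting.

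**Figure D1:**
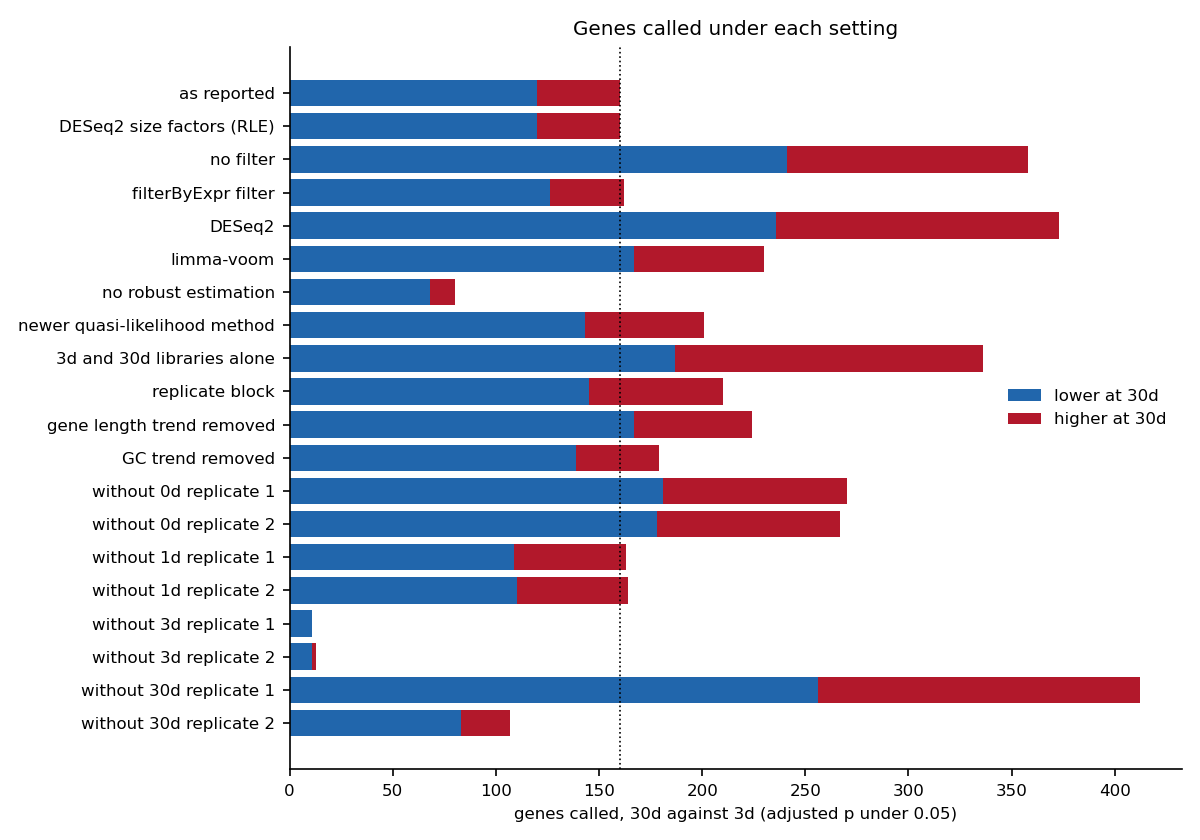
Number of genes called at an adjusted p under 0.05 for 30d against 3d (x axis) under the reported setting and 19 alternatives (y axis), split into genes lower (blue) and higher (red) at 30d. The dotted line marks the reported 160 genes, and the counts without either 3d library, 11 and 13, stand far to its left.

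The sample labels name DRG neurons, but the RNA came from dissected ganglia and other cell types were plainly present. Markers of sensory neurons summed to 28670 and 28424 CPM at 3d and 27065 and 27455 CPM at 30d, and their median log2 fold change was -0.05. Of these 20 genes 15 were below 0 and 2, Calca and Tac1, were called lower (7 lower and 1 higher at an unadjusted p under 0.05). Myelinating Schwann cell markers summed to 10659 and 10616 CPM at 3d but to 6667 and 9256 CPM at 30d. Their list had a median of -0.32, with 15 of 16 genes below 0, yet edgeR called none, where 7 had an unadjusted p under 0.05, DESeq2 called 3 and limma-voom 1. Without 30d replicate 1 the median was -0.16, with 2 genes lower at an unadjusted p under 0.05, and without 30d replicate 2 it was -0.55, with 3 calls. Red blood cell markers went the other way, from 277 and 288 CPM at 3d to 649 and 383 CPM at 30d. Their 9 genes were all above 0, with a median of 1.10, which was 0.56 without 30d replicate 1 and 1.46 without 30d replicate 2. None of them was called by edgeR, while 2 had an unadjusted p under 0.05, DESeq2 called 2 and limma-voom 0. The globin pairs Hba-a1 and Hba-a2 share their counts, so they weigh as 1 gene.

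The replicates of 30d stood apart from each other in these markers. Replicate 1 held more counts of neutrophil markers (297 against 127 CPM in 30d replicate 2), skeletal muscle markers (205 against 53.1 CPM) and adipocyte markers (43.4 against 12.3 CPM), and fewer of Schwann cell markers. For skeletal muscle the 0d libraries read 254 and 132 CPM, so replicate 1 of 30d lay between them. Replicate 2 of 30d was the lowest of the 8 libraries for that list. The 3d pools gave nearly equal sums for the same lists, for example 190 and 189 CPM for neutrophil markers and 122 and 118 CPM for skeletal muscle. Macrophage markers gave 277 and 282 CPM at 3d and 320 and 276 CPM at 30d. The part of these shifts in the changes below was not tested, and in such bulk samples fewer cells of a type and less RNA per cell cannot be told apart.

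**Figure D2:**
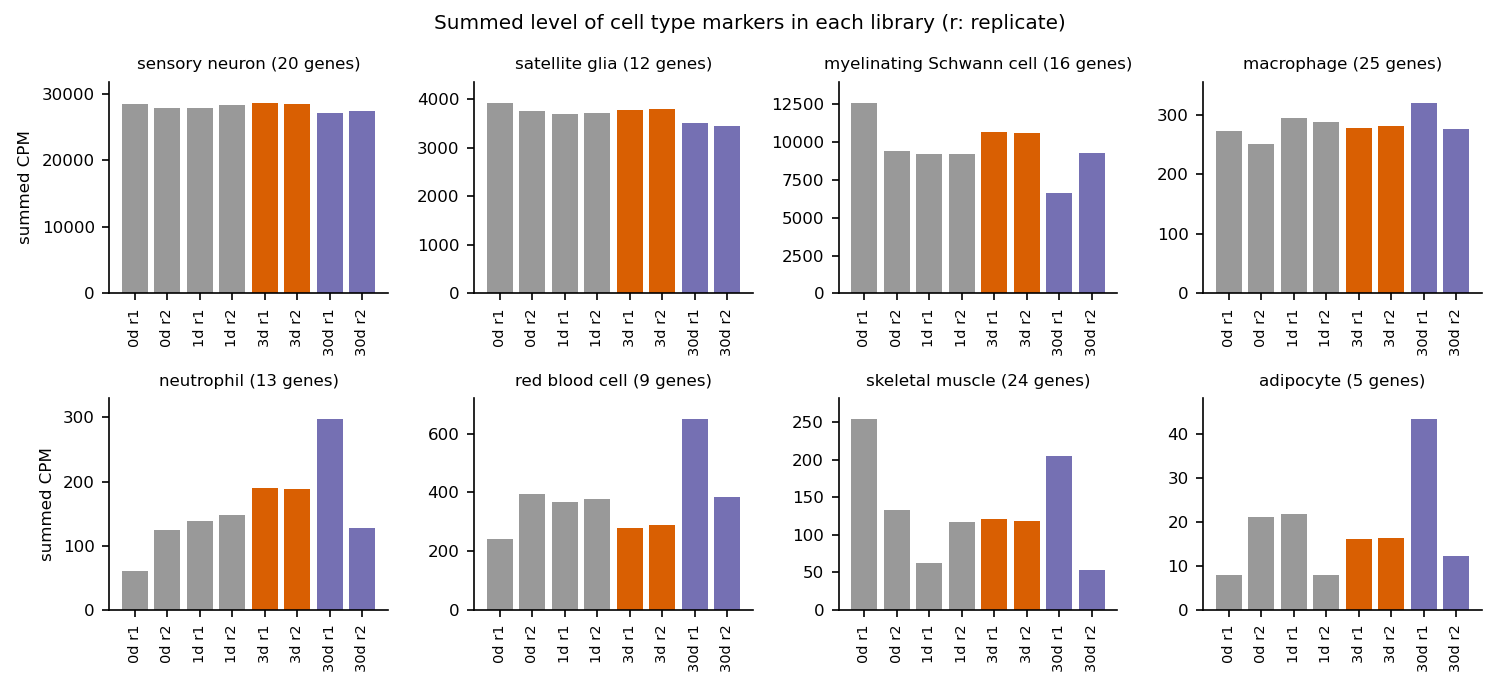
Summed CPM (y axes, from 0) of 8 lists of cell type markers in each of the 8 libraries (x axes, r for replicate), with 3d in orange, 30d in purple and the earlier time points in grey. The bars of 3d are level with each other. Those of 30d are not, with replicate 1 above replicate 2 for red blood cell, neutrophil, muscle and adipocyte markers and below it for Schwann cell markers.

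The 160 genes fell into 4 classes by whether they differed from 0d at an adjusted p under 0.05. For all tested genes, 0.408% differed from 0d at 1d, 0.241% at 3d (0.207% higher and 0.0334% lower) and 0.0201% at 30d (0.0134% lower and 0.00669% higher). In 26 genes (16.25%) 3d differed from 0d and 30d did not. A further 6 (3.75%) differed from 0d at 1d alone, and 3 (1.875%) differed at 30d. The largest class, with 125 genes (78.12%), differed from 0d at no time point by the adjusted threshold. Each of the 125 had an unadjusted p under 0.05 against 0d at 3d or at 30d. Choosing them for a difference between 3d and 30d in the same fit largely fixes this, so it is no separate evidence of a change from 0d. Over all genes, without such a choice, the share was 6.6% at 3d and 13% at 30d. All of these comparisons share libraries, so the classes sort the genes and are not separate evidence. Missing the threshold against 0d does not show that a level was equal to 0d. Without 30d replicate 2 the last class held 34 genes, and without 30d replicate 1 it held 314. The counts against 0d that set the other classes moved as far. For 3d against 0d, 36 genes were called as reported, but 0 without 3d replicate 1, 1 without 3d replicate 2, 100 without 30d replicate 1 and 112 in DESeq2. For 30d against 0d the 3 calls became 188 in DESeq2, 177 without a filter, 152 without 30d replicate 2, 62 with the replicate block and 0 without robust estimation, so the sizes of the classes hold for the reported fit alone.

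**Figure D3:**
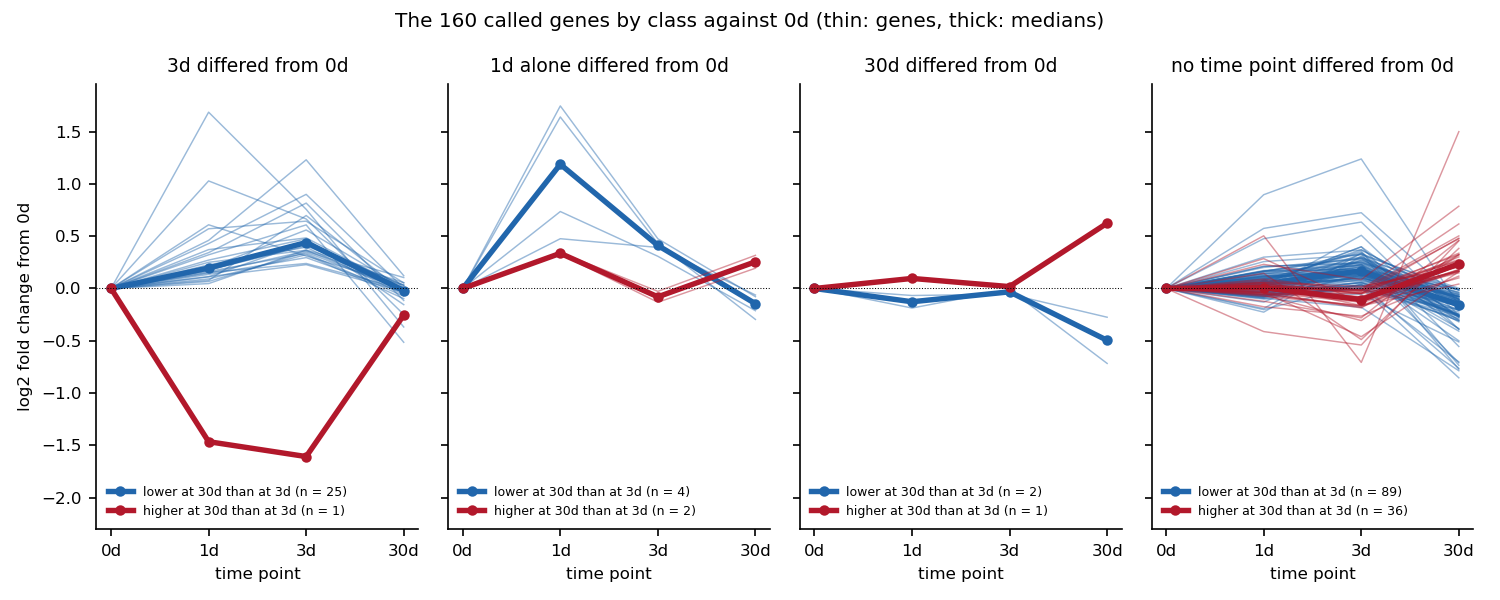
Fitted log2 fold change from 0d (y axis) at each time point (x axis) for the 160 called genes in 4 panels, one per class, with thin lines for genes and thick lines for the median of the genes lower (blue) or higher (red) at 30d than at 3d. In the left panel the median of 25 genes peaks at 0.44 at 3d and lies at -0.02 at 30d, and in the right panel the medians cross near 0.

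Of the 26 genes raised or lowered at 3d and no longer different at 30d, 25 were higher at 3d and fell. Their median log2 fold change was -0.45 from 3d to 30d, made of 0.44 at 3d and -0.02 at 30d against 0d, and the 0d mean was nearer to 30d than to 3d in all 25. In 16 of them the 0d mean lay between the 3d and 30d means, and in the other 9 the 30d mean was still above 0d. Oasl2, a member of the oligoadenylate synthetase family induced by interferon, had the smallest p of the whole comparison. It stood at 73.97 and 73.8 CPM at 3d and 39.4 and 39.1 CPM at 30d, after 44.7 and 48.5 CPM at 0d. This gene, on chromosome 5 of mm10 from 114896934 to 114912245, fell by 0.91 on the log2 scale (SE 0.07, edgeR adjusted p = 6.08e-05), and both 30d pools lay below both 0d pools. Bdnf, a neurotrophin that nociceptors carry to the spinal cord, held 49.4 and 54.7 CPM at 3d and 26.6 and 21.3 CPM at 30d. It lies on chromosome 2 of mm10 from 109674700 to 109727043 and fell by 1.12 (SE 0.10, edgeR adjusted p = 0.000310) to a level under its 32.8 and 35.5 CPM at 0d, where its 30d difference missed the threshold (edgeR adjusted p = 0.0699). Another gene model shares 10.7% of the 50-base words of Bdnf.

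Nptx1, a secreted pentraxin of synapses, fell from 347 and 342 to 269.8 and 249.998 CPM, a log2 fold change of -0.41 (SE 0.04, edgeR adjusted p = 0.000779). Ptgir encodes the prostacyclin receptor, through which prostacyclin sensitizes nociceptors, and its values were 87.1 and 87.1 CPM at 3d and 63.6 and 60.7 CPM at 30d. With 62.9 and 61.7 CPM at 0d, its 30d level was back in the range of naive ganglia, and the step was -0.49 (SE 0.06, edgeR adjusted p = 0.00100). Etv5, an ETS transcription factor downstream of growth factor signalling, gave 138 and 139 CPM at 3d and 97.8 and 81.9 CPM at 30d, a step of -0.63 (SE 0.07), with 26.8% of its 50-base words shared with another gene model. The low-affinity neurotrophin receptor gene Ngfr fell by 0.33, from 1063 and 1044 to 854 and 819 CPM.

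Other falls of this class came from Fam107a, Pappa and Loxl4, named here after their values were seen. Fam107a, a stress-responsive actin-binding gene, went from 51.9 and 46.6 to 25.7 and 20.05 CPM, a log2 fold change of -1.11 (SE 0.14). Pappa, a protease that frees insulin-like growth factors, went from 25.01 and 22.02 to 13.2 and 11.4 CPM (-0.93, SE 0.11), and the collagen crosslinking gene Loxl4 from 10.7 and 9.63 to 6.14 and 4.79 CPM (-0.90, SE 0.17). In all of these the 30d pools returned to near the 0d values of 23.6 and 18.5, 13.5 and 13.2 and 4.78 and 6.09 CPM. The gene of the class that rose was Myh1, a fast muscle myosin, at 1.87 and 1.57 CPM at 3d and 4.99 and 3.81 CPM at 30d after 6.67 and 3.83 CPM at 0d. Its log2 fold change was 1.35 (SE 0.28, edgeR adjusted p = 0.0315). Other genes, chiefly Myh2, hold 32.1% of its 50-base words, and the skeletal muscle marker list it belongs to varied between pools.

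The 6 genes that had differed from 0d at 1d alone all encode immune proteins, and they split by direction. Ddx58 (RIG-I, a sensor of viral RNA), Tifa (an adaptor of NF-kB signalling), Ifit3 and Irf7 (a transcription factor of the interferon response) fell further between 3d and 30d, by a median step of -0.54. Irf7 had been at 24.2 and 19.99 CPM at 1d and stood at 9.33 and 9.78 CPM at 3d and 6.80 and 4.79 CPM at 30d. H2-Eb1 and H2-Aa, which encode chains of MHC class II, had been higher at 1d and were not at 3d, and they rose again by a median of 0.34.

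Itgb8, Apoe and Slc25a37 differed from 0d at 30d and did not pass the threshold at 3d. Itgb8, the integrin subunit that activates latent TGF-beta, was at 53.5 and 53.7 CPM at 3d and 35.8 and 29.9 CPM at 30d against 56.3 and 51.7 CPM at 0d. Its fall of 0.71 (SE 0.08, edgeR adjusted p = 0.00117) came wholly after 3d, since its log2 fold change from 0d was -0.01 at 3d and -0.72 at 30d. Apoe, the lipid carrier made mainly by satellite glia in this tissue, fell from 2175 and 2184 to 1827 and 1915 CPM, a log2 fold change of -0.22 (SE 0.04, edgeR adjusted p = 0.0124). It was the 1 call among 12 satellite glia markers, where 0.803% of all genes fell. Of these markers 9 were below 0 and 3 above, with a median of -0.13. Slc25a37 (mitoferrin, the mitochondrial iron importer) rose from 19.5 and 19.7 to 30.9 and 28.8 CPM. Its log2 fold change was 0.61 (SE 0.09, edgeR adjusted p = 0.00560), with the red blood cell markers given above also higher at 30d. The calls of Apoe and Slc25a37 were lost without either 3d library (edgeR adjusted p between 0.162 and 0.303), while that of Itgb8 stayed (edgeR adjusted p = 0.0478 and 0.0429).

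Ncam2, a neural adhesion molecule, fell after 3d and just missed the threshold against 0d (edgeR adjusted p = 0.0565). It read 23.1 and 23.8 CPM at 3d and 17.8 and 13.1 CPM at 30d after 26.3 and 26.8 CPM at 0d, a step of -0.61 from 3d (SE 0.12, edgeR adjusted p = 0.0289). This call was lost without either 3d library, without 30d replicate 2, without robust estimation and with 3d and 30d fitted alone, with log2 fold changes of -0.84 to -0.40 over the settings.

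The 125 genes that differed from 0d at no time point comprised 89 that fell and 36 that rose. For the 89, the medians were 0.17 at 3d and -0.16 at 30d against 0d around a median step of -0.34. The 0d mean lay between the 3d and 30d means in 83 of them, which the choice of the class largely fixes, and was nearer to 30d in 43 and to 3d in 46. For the 36 that rose, the medians were -0.11 at 3d and 0.24 at 30d, with the 0d mean between in 33 and nearer to 3d in 30. Fbln5, an elastic fibre gene, is an example, with 122 and 126 CPM at 3d and 88.9 and 94.9 CPM at 30d around 112 and 111 CPM at 0d. Matn2, a matrix protein gene of peripheral nerve, read 152 and 153 CPM at 3d and 100.5 and 99.01 CPM at 30d, on both sides of 130.4 and 109.9 CPM at 0d. Their log2 fold changes were -0.44 (SE 0.05) and -0.61 (SE 0.06), both with an edgeR adjusted p of at most 0.00101.

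Within this class some genes were near their 0d level at 3d and lower at 30d. Ptpn4 (a protein tyrosine phosphatase) and Mmp16 (a membrane-bound matrix protease), chosen after their values were seen, had log2 fold changes from 0d of 0.01 and 0.04 at 3d and of -0.70 and -0.76 at 30d. Others had their larger distance from 0d at 3d, such as Trpa1, at 0.26 at 3d and -0.11 at 30d. Scd1, a desaturase of fatty acid synthesis, fell by 0.29 (SE 0.03, edgeR adjusted p = 0.00116), from 1183 and 1177 to 974 and 949.8 CPM. The mu opioid receptor gene Oprm1, also named after its values were seen, read 22.9 and 20.7 CPM at 3d and 16.6 and 14.5 CPM at 30d and had a log2 fold change of -0.49 (SE 0.10, edgeR adjusted p = 0.0342).

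The 36 genes that rose and had not differed from 0d had a median step of 0.34. Rnf112, a brain-enriched ubiquitin ligase gene, went from 115 and 117 to 145 and 139 CPM (0.29, SE 0.05, edgeR adjusted p = 0.0103). Scn4b, an auxiliary subunit of voltage-gated sodium channels, rose by 0.27 (SE 0.05), from 437 and 446 to 512 and 551 CPM. Slc6a13, a GABA transporter gene of meninges and other barrier tissue, rose by 1.00 (SE 0.17) from 7.36 and 6.90 to 14.04 and 14.4 CPM. Its 0d pools, at 12.6 and 8.21 CPM, were far apart. Rasgrf1, a neuronal Ras exchange factor, rose by 0.63 (SE 0.11), and its pools, 15.98 and 17.2 CPM at 3d and 24.7 and 26.6 CPM at 30d, lay well apart. Pabpn1 (a nuclear poly(A)-binding protein), Ankrd24 and Gprasp1 (a protein that sorts G protein-coupled receptors) rose by 0.38 (SE 0.07), 0.51 (SE 0.09) and 0.22 (SE 0.04). The largest rise was that of Cdca5, a cohesion factor of dividing cells, at 2.21 (SE 0.47, edgeR adjusted p = 0.0399), but only from 0.168 and 0.287 to 1.03 and 1.10 CPM. Among the libraries compared it reached 1 CPM in those of 30d alone, and its call was lost with the filterByExpr filter, without robust estimation and in 6 of the 8 fits that left out a library.

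**Figure D4:**
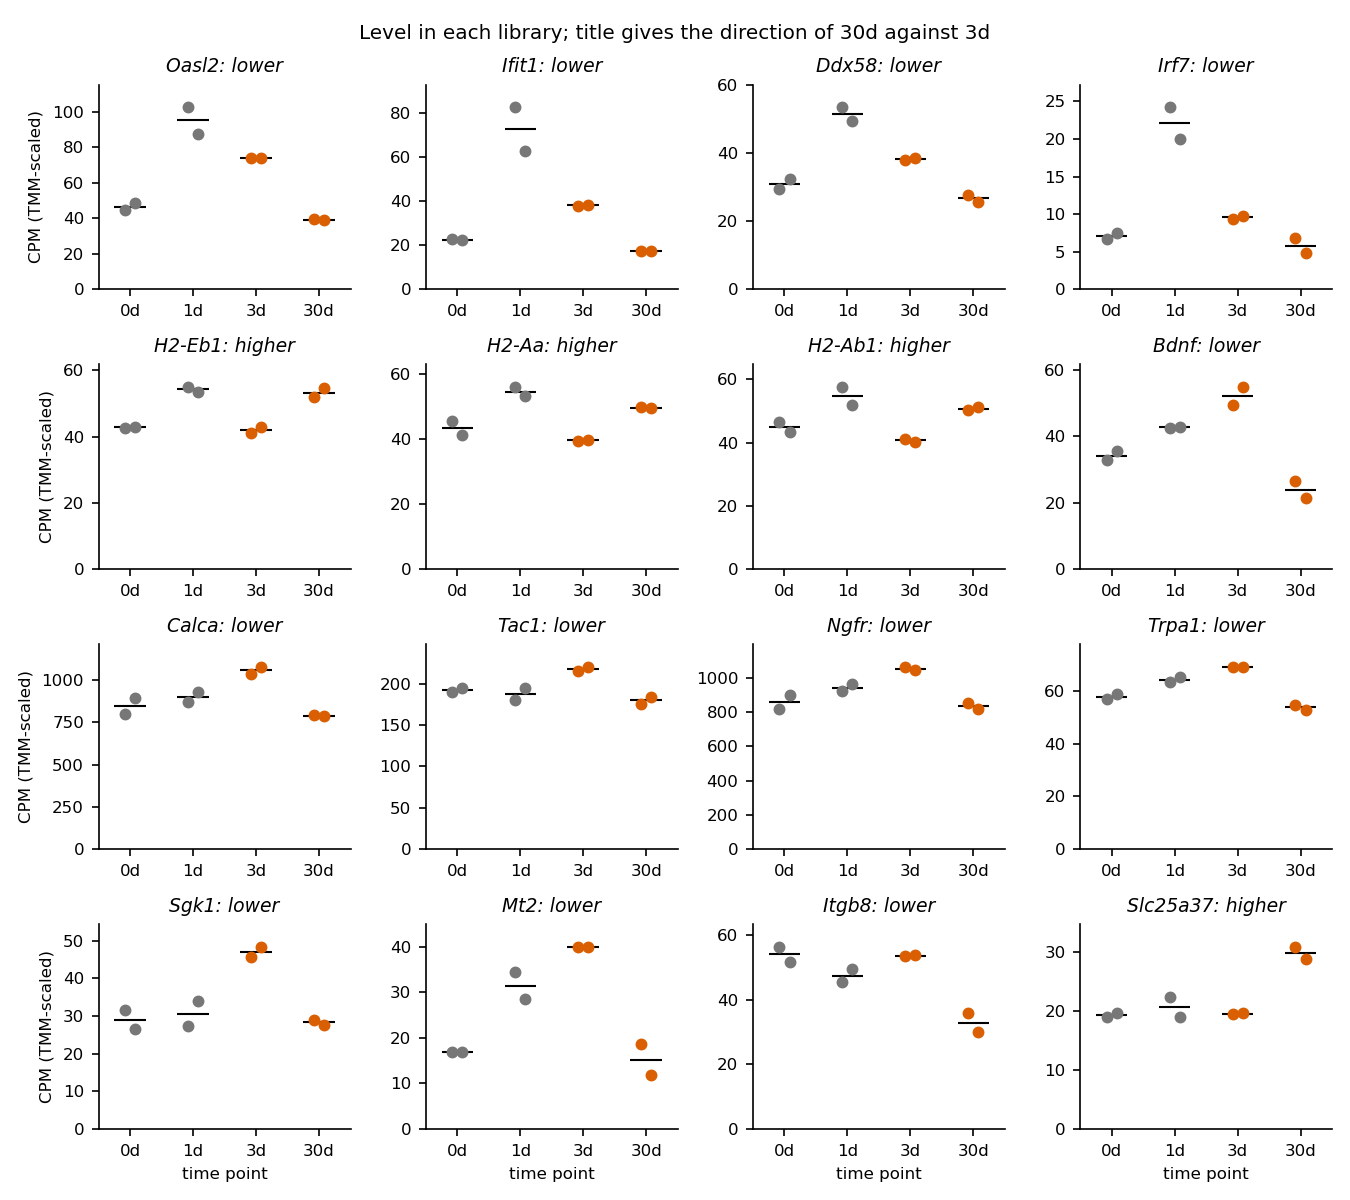
CPM scaled by TMM (y axes, from 0) of 16 genes in each library at 0d, 1d, 3d and 30d (x axes), with points for pools, horizontal lines for means of 2 pools, and orange for the time points compared. In every panel the 30d points do not overlap the 3d points, and the MHC class II genes are high at 1d, low at 3d and high again at 30d.

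Several precursors of sensory neuropeptides fell. Of 13 tested, 5 fell and none rose, against the 0.803% of all genes that fell, and their median was -0.29, against 0.0023 over all genes tested. Calca, the precursor of CGRP, held 1037 and 1077 CPM at 3d and 794 and 786 CPM at 30d after 798 and 891 CPM at 0d. It fell by 0.42 (SE 0.05, edgeR adjusted p = 0.00218) to just under its naive level. Tac1, the precursor of substance P, fell by 0.28 (SE 0.05), from 216 and 220.2 to 175 and 185 CPM, and Calcb, which encodes beta-CGRP, by 0.36 (SE 0.06). Adcyap1 (PACAP) fell by 0.49 (SE 0.06), from 91.6 and 88.6 to 66.9 and 61.5 CPM, below its 73.2 and 81.6 CPM at 0d, and the granule protein gene Scg2 fell by 0.29 (SE 0.04). Vgf, a peptide precursor induced by neurotrophins, had the largest difference of the list, with 243 and 248 CPM at 3d and 129 and 97.1 CPM at 30d, yet its log2 fold change of -1.12 (SE 0.16) missed the threshold (edgeR adjusted p = 0.0751). Gal, Sst and Nppb, precursors of galanin, somatostatin and a natriuretic peptide, had log2 fold changes of 0.08, -0.02 and -0.02. With 30d replicate 1, the pool with more blood markers, left out, 6 of the list were called, and 5 were called without 30d replicate 2. Without 3d replicate 1 the test called 1 of them and without 3d replicate 2 it called 0, although the median stayed at -0.29 and -0.28 and 7 and 6 had an unadjusted p under 0.05.

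Neurotrophic genes gave 2 calls of 12, Bdnf and Ngfr, both lower, where 0.803% of all genes were. With either 3d library left out, 1 remained. Ret and Ntrk3, receptors for GDNF family ligands and neurotrophin-3, stood at -0.21 and -0.29 on the log2 scale, short of the threshold (edgeR adjusted p = 0.0566 and 0.164). Nerve injury genes gave 2 calls of 22, Adcyap1 and the growth cone gene Gap43, and a median of -0.22. Without either 3d library none of the 22 was called. At an unadjusted p under 0.05, 10 of the 22 were lower and 0 were higher. Ecel1 had a log2 fold change of -1.76 and missed the threshold (edgeR adjusted p = 0.0824). Atf3, the classic marker of axotomized neurons, had a log2 fold change of -0.25 (SE 0.20, edgeR adjusted p = 0.604).

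Ion channel genes gave 5 calls in the lists of TRP and acid-sensing, potassium, and sodium and calcium channels, 4 lower and 1 higher, where 0.803% and 0.268% of all genes were called lower and higher. Among 23 TRP and acid-sensing channels Trpa1, the receptor of mustard oil and other irritants, was the 1 that fell, from 69.1 and 69.1 to 54.6 and 53.01 CPM after 57.1 and 58.7 CPM at 0d (-0.36, SE 0.05, edgeR adjusted p = 0.00518). Trpv1, the capsaicin receptor, was at -0.15 (edgeR adjusted p = 0.204) and the cold receptor Trpm8 at 0.25 (edgeR adjusted p = 0.0763). Potassium channels gave 3 calls of 84, all lower, the modulatory subunits Kcnv1 (-0.36) and Kcng1 (-0.95) and the delayed rectifier Kcnb2 (-0.36), with a list median of 0.01. The potassium channel calls were not all lower under other settings, with 5 lower and 4 higher in DESeq2, 4 and 4 without a filter, 3 and 2 with the replicate block, 2 and 2 with 3d and 30d fitted alone and 2 and 3 without 30d replicate 1, and 10 lower and 13 higher had an unadjusted p under 0.05. Of 35 voltage-gated sodium and calcium channel genes Scn4b alone was called. None of these channel lists gave a call without 3d replicate 1 or without 3d replicate 2. The 31 GABA and glutamate receptor subunits gave 0 calls in edgeR, DESeq2 and limma-voom (1 without 30d replicate 1) and 4 genes with an unadjusted p under 0.05, 1 lower and 3 higher.

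Of 18 glucocorticoid-responsive genes tested, 5 fell and none rose, while 0.803% of all genes fell. Their median was -0.32, against 0.0023 over all genes, and 16 of the 18 had a log2 fold change below 0. Sgk1, a kinase that regulates ion transport, held 45.6 and 48.3 CPM at 3d and 28.96 and 27.7 CPM at 30d after 31.5 and 26.5 CPM at 0d and fell by 0.73 (SE 0.10, edgeR adjusted p = 0.00560). Tsc22d3 (GILZ, which restrains inflammatory transcription) fell by 0.41 (SE 0.06), from 212 and 213 to 167 and 153 CPM. Ddit4 (REDD1, an inhibitor of mTOR) fell by 0.59 (SE 0.08). The metal-binding Mt1 and Mt2 fell by 0.89 (SE 0.13) and 1.40 (SE 0.21). Both calls were lost with 3d and 30d fitted alone. The call of Mt1 was also lost with the replicate block, and that of Mt2 without a filter and with the length trend removed. Over the settings the log2 fold changes ran from -1.14 to -0.67 for Mt1 and from -1.76 to -1.10 for Mt2. For Mt2 the values were 39.9 and 39.8 CPM at 3d and 18.6 and 11.8 CPM at 30d, after 16.99 and 16.8 CPM at 0d. Mt2, the largest fall among the called genes, shares 45.5% of its 50-base words with another gene model, so its count is uncertain.

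The median of the glucocorticoid list against 0d was 0.42 at 3d and 0.02 at 30d, and 2 of the 18 were higher than 0d at 3d (0.207% of all genes). Some members rested on 1 pool at 30d. Zbtb16, Per1 and Fkbp5, all direct targets of the glucocorticoid receptor, read 11.7 and 4.39, 53.7 and 31.1 and 68.7 and 53.8 CPM there, replicate 1 being the higher each time, and none was called. In the list 9 genes were called lower without 30d replicate 1 and 3 without 30d replicate 2, and 0 without either 3d library. The circadian list, which shares Per1, gave 1 call of 20, where 0.268% of all genes rose. That call was lost without either 1d library and without either 3d library, and 1 lower and 2 higher were called without 30d replicate 1. Nr1d1 (REV-ERB alpha) rose by 0.62 (SE 0.09, edgeR adjusted p = 0.0216), from 71.5 and 63.9 to 112 and 95.9 CPM, with 100.2 and 86.3 CPM at 0d. It shares 8.23% of its words with transcripts of Thra, the neighbouring gene on the opposite strand, which rose by 0.21 (SE 0.05), although the gene models that were counted do not overlap. The hour of dissection is not given in the sources used here.

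**Figure D5:**
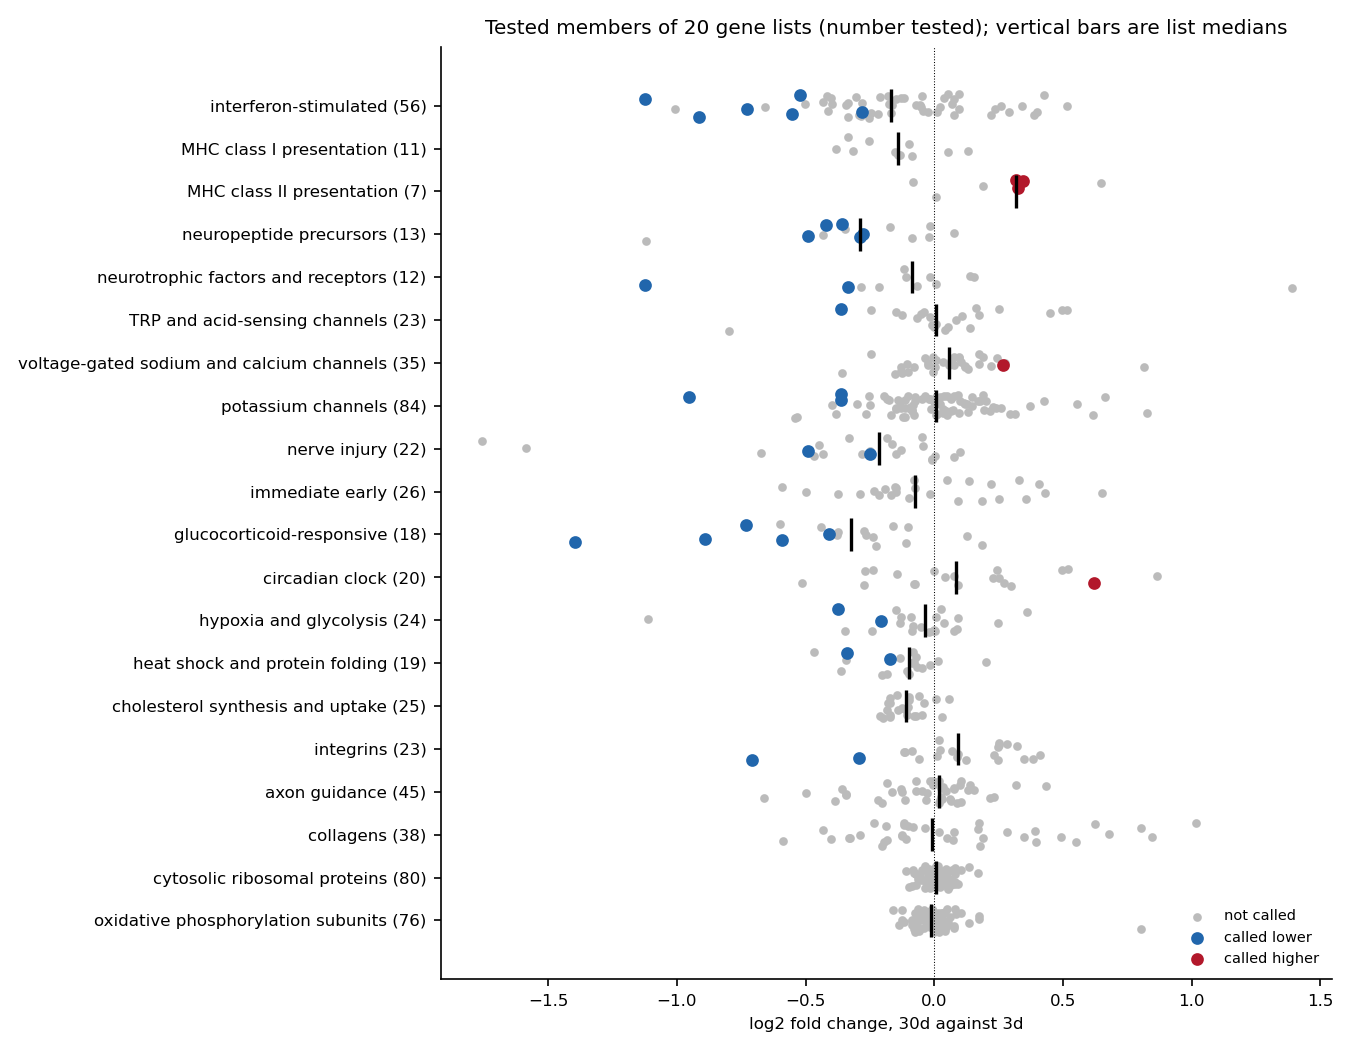
Log2 fold change of 30d against 3d (x axis) for each tested member of 20 gene lists (y axis, number tested in brackets), with genes called lower in blue, called higher in red and not called in grey, and the list median as a black bar. Neuropeptide and glucocorticoid-responsive genes lie mostly left of 0 and MHC class II genes mostly right of it, while ribosomal and oxidative phosphorylation genes sit close to 0.

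Interferon-stimulated genes had their calls against 0d mainly at 1d, and some fell further after 3d. Of 56 tested, 37 were higher than 0d at 1d (0.388% of all genes), 3 at 3d and 0 at 30d, where the medians against 0d were 1.02, 0.20 and 0.02. Between 3d and 30d, 6 fell and none rose, namely Oasl2, Ifit1, Ddx58, Lgals3bp, Ifit3 and Irf7, with a list median of -0.17. Over all genes 0.803% fell. Ifit1, which binds foreign RNA, lies on chromosome 19 of mm10 from 34640889 to 34650009 and held 37.997 and 38.3 CPM at 3d and 17.4 and 17.6 CPM at 30d after 22.8 and 22.4 CPM at 0d. Its fall of 1.13 (SE 0.11, edgeR adjusted p = 0.000830) left both 30d pools under both 0d pools. Lgals3bp, a secreted ligand of galectins, fell by 0.28 (SE 0.06), and Ifit3 by 0.55 (SE 0.12), although Ifit3 shares 51.2% of its words with other genes, chiefly Ifit3b. The call of Ifit3 was lost without robust estimation and with 3d and 30d fitted alone. Its log2 fold changes ran from -0.78 to -0.35 over the settings. Isg15, a ubiquitin-like modifier, had 4.04 and 4.41 CPM at 3d and 4.36 and 4.41 CPM at 30d, beside 4.14 and 4.10 CPM at 0d. Rsad2, an antiviral enzyme, had a log2 fold change of 0.10 (SE 0.15). Without 30d replicate 1 the list had 10 calls and a median of -0.28, and without 30d replicate 2 it had 4 and -0.07. Only 2 were called without 3d replicate 1, 2 without 3d replicate 2 and 3 without robust estimation.

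Genes for MHC class II chains rose at the same step. Of 7 tested, 3 rose and none fell, with a median of 0.32, and 0.268% of all genes rose. H2-Aa, the alpha chain of I-A, read 39.4 and 39.7 CPM at 3d and 49.8 and 49.3 CPM at 30d after 45.5 and 41.2 CPM at 0d and 55.8 and 53.02 CPM at 1d. H2-Ab1, its beta chain, read 41.1 and 40.3 CPM at 3d and 50.3 and 51.3 CPM at 30d, and H2-Eb1, the beta chain of I-E, read 40.95 and 42.97 CPM at 3d and 51.9 and 54.6 CPM at 30d. The pools of each time point were close, and both 30d pools exceeded both 3d pools in all 3 genes. Their log2 fold changes were 0.33 (SE 0.07), 0.32 (SE 0.07) and 0.34 (SE 0.06), with edgeR adjusted p-values of 0.0289, 0.0369 and 0.0143. Cd74 (the invariant chain) and Ciita (the master regulator of the class II genes) were at 0.19 and 0.65 and missed the threshold (edgeR adjusted p = 0.0921 and 0.185), while the H2-DM genes were at -0.08 and 0.01. No class II gene was called without 30d replicate 2 or without either 3d library, though the list median stayed at 0.30 to 0.31. Among 11 MHC class I genes 4 were higher than 0d at 1d (0.388% of all genes), and between 3d and 30d edgeR called 0, with a median of -0.14, 2 genes at an unadjusted p under 0.05, 1 call by DESeq2 and 0 by limma-voom. Fitting 3d and 30d alone gave 3 class I calls, all lower, and the median was -0.29 without 30d replicate 1 and -0.06 without 30d replicate 2.

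Promoter stretches of Ifit1 and Ifit3 from the interferon list and of H2-Aa from the class II list are shown because these genes went in opposite directions, and that of Scg2 from the neuropeptide list because it holds the same element as H2-Aa. RefSeq promoter windows (GRCm38.p6, from 250 bases before to 50 after the gene start) were found for 112 of the 160 genes and 11196 of the tested genes. The interferon-stimulated response element was searched as GAAA, 2 bases of any kind and GAAA, and the cyclic AMP response element as TGACGTCA, on both strands. In the sequences below, written 5′ to 3′ along the gene, capitals mark 1 match per gene, which for Ifit1 and Ifit3 is the element read on the opposite strand (TTTC, 2 bases, TTTC). Ifit1 is from chr19:34640760-34640819 on the plus strand, Ifit3 from chr19:34583348-34583407 on the plus strand, H2-Aa from chr17:34287865-34287922 on the minus strand and Scg2 from chr1:79440062-79440119 on the minus strand.
Ifit1: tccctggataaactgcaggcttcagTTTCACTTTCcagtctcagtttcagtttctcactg
Ifit3: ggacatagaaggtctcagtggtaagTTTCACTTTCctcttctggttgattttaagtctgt
H2-Aa: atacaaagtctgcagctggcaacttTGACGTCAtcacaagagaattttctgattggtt
Scg2: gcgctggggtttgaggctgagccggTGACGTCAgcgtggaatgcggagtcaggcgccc
These matches begin 104 and 156 bases before the start of Ifit1 and Ifit3, 74 before that of H2-Aa and 68 before that of Scg2. The stretch of Ifit1 holds another match of the interferon element, left in lower case, that begins 85 bases before the start. The interferon element was in 22 of 41 promoters of the interferon list (53.7%), in 11 of 87 genes that fell (12.6%), in 2 of 25 that rose (8.0%) and in 3.55% of all tested promoters. The cyclic AMP element was in 3 of the 87 (3.45%), Abce1, Ldha and Scg2, and in 1 of the 25 (4.0%), H2-Aa, against 3.46% of all. The E-box CACGTG was in 15 of the 87 (17.2%) and 1 of the 25 (4.0%), against 11.2% of all. A match is a description of these letters and not a site in use.

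Other lists contributed few calls, and those of hypoxia and glycolysis and of heat shock genes were lost without either 3d library. Pfkfb3 and Ldha, enzymes that drive glycolysis, fell by 0.38 (SE 0.05) and 0.21 (SE 0.04) among 24 hypoxia and glycolysis genes, whose median was -0.04. The chaperones Hsph1 and Hsp90aa1 fell by 0.34 (SE 0.06) and 0.17 (SE 0.04), and 17 of the 19 heat shock and protein folding genes were below 0. Of 25 genes of cholesterol synthesis and uptake, 22 were below 0 with a median of -0.11. EdgeR called 0 of them, 9 had an unadjusted p under 0.05, and DESeq2 and limma-voom called 1 each. Without 30d replicate 2 there were 2 calls lower and 16 genes lower at an unadjusted p under 0.05, and without 30d replicate 1 there was 1 call, higher, and 3 lower at that p. Integrins gave 2 calls of 23, Itgb8 and the laminin receptor subunit Itga3, which fell by 0.29 (SE 0.06), and their median was 0.09. Over all genes 0.803% fell, against 2 of 24, 2 of 19 and 2 of 23 in the hypoxia, heat shock and integrin lists. The endothelial marker Ly6c1 fell by 0.59 (SE 0.12) but shares 36.7% of its words, chiefly with Ly6c2. It was the 1 call among 12 endothelial genes, whose median was -0.07, where 0.803% of all genes fell. That call was lost without robust estimation and with 3d and 30d fitted alone, with log2 fold changes of -0.80 to -0.40 over the settings.

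For 26 immediate early genes, 38 collagens, 80 cytosolic ribosomal proteins, 76 oxidative phosphorylation subunits and 16 complement genes edgeR called 0, with medians of -0.08, -0.01, 0.01, -0.01 and 0.03. At an unadjusted p under 0.05 they held 3, 6, 1, 3 and 1 genes, limma-voom called none of them and DESeq2 called 1, a collagen. These counts varied with the setting for collagens, with 9 calls (5 lower and 4 higher) when 3d and 30d were fitted alone and 5 without either 0d library, and for immediate early genes, with 4 calls, all lower, without 30d replicate 1. The 69 protocadherins, adhesion molecules of neurons, gave 0 calls in edgeR, DESeq2 and limma-voom (1 without 30d replicate 1) and 5 genes at an unadjusted p under 0.05, with a median of -0.04. The 45 axon guidance genes gave 0 calls in edgeR, 9 genes at an unadjusted p under 0.05, 4 in DESeq2 and 2 in limma-voom.

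Of 17 genes that the study singles out in the mouse data, 6 changed between 3d and 30d (1.07% of all genes), Apoe, Itgb8, Ncam2, Irf7 and Tifa lower and Slc25a37 higher. The study chose genes on these same samples, so this count is not independent. Some of the 17 come from its interaction network, which by its own account held many genes that were not differentially expressed themselves. The other 11 were not called. Hif3a, a hypoxia-inducible factor subunit, had the largest difference among them (-1.11, SE 0.35, edgeR adjusted p = 0.185), from 7.50 and 7.29 CPM at 3d to 4.96 and 1.92 CPM at 30d, with 1.10 and 1.37 CPM at 0d. Both 30d pools were below both 3d pools and above both 0d pools, but far apart from each other. Mcl1, a survival gene, was at -0.24 (SE 0.06, edgeR adjusted p = 0.0693). Gsk3b, Grb2 and Hif1a were close to 0, at -0.01, -0.01 and -0.02.

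Genes that rose and fell differed in base composition. The median GC content was 55.1% for genes that rose, 49.5% for genes that fell and 49.9% over all tested genes, and the median exonic length was 3648, 3346.5 and 2942 bases. With a GC trend removed from each library, 116 of the 120 genes that fell and 35 of the 40 that rose were still called, and the same numbers held with a length trend removed. The counts behind the calls, which depend on gene length as well as level, had a median of 85.7 CPM at 3d for genes that fell, 41.3 CPM for genes that rose and 24.1 CPM over all genes. Of 152 called genes with a transcript in the annotation used, 93 shared under 1% of their 50-base words with another gene and 30 shared 10% or more, so the separate counts of the latter are uncertain. Among these were Etv5 (26.8%), Bdnf (10.7%), Hsp90aa1, Pabpn1, Ctsl, Prrt2, Mrgpra2b and the overlapping pair Nptxr and Npcd.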

How the data were processed

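RNA-seq was done on pooled left L3 to L5 dorsal root ganglia of C57BL/6J mice, 2 libraries at each of 0d, 1d, 3d and 30d. Per the labels and the study's methods, the authors used cutadapt 2.10 for trimming, STAR 2.7.5a for alignment to mm10, and counted read pairs for every UCSC gene they overlapped with featureCounts 2.0.1, without strand and without multi-mapping reads. The deposited values are raw counts per gene, 44123208 to 73580338 per library.

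Counts were fitted here with edgeR 4.0.16 in R 4.3.3 (TMM factors of 0.994 to 1.01, robust quasi-likelihood F-test, Benjamini-Hochberg adjustment), with 1 mean per time point over all 8 libraries. Genes needed at least 1 CPM in 2 libraries, which left out 9473 genes holding at most 0.109% of a library's counts. Fold changes are those of the quasi-likelihood fit. A prior count of 2 entered only the log2 CPM values behind the replicate differences, the correlation of deviations and the length and GC trends. CPM values are TMM-scaled. The 30d, 3d and 1d comparisons with 0d come from the same fit. The script was tested on simulated data. Alternatives were DESeq2 1.42.0, limma-voom 3.58.1, other filters, scalings and quasi-likelihood settings, a replicate block, gene length and GC trends, and leaving out each library. No column of the table went unused.

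The comparison, the gene lists and the markers were chosen with earlier results of these data known. Genes were named by a rule: the 10 smallest p-values per direction among called genes, the 5 per class, up to 4 per list and the genes the study names. All others named with values, among them Mt2, Fam107a, Pappa, Loxl4, Ptpn4, Mmp16, Oprm1, Cdca5, Calcb, Zbtb16, Per1, Fkbp5, Gal, Sst, Nppb, Ntrk3, Trpv1, Atf3, Thra and Ciita, were chosen after their values were seen. Pools share nothing by replicate number in the labels, and the correlation of same-numbered deviations between 3d and 30d was 0.011, so numbers were not used to pair libraries. P-values set each difference against the spread between libraries of the same time point, estimated over all 8 libraries.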

Additional observations from a re-analysis of the deposited data

How the results depend on the processing

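Scaling by DESeq2 size factors left the count at 160 genes. Without a filter on low counts 358 genes were called (241 lower and 117 higher), and 208 of them differed from 0d at no time point. DESeq2 called 373 (236 lower and 137 higher, with 208 that differed from 0d at no time point), and limma-voom called 230, of which 63 were higher. Without robust estimation 80 were called (68 lower and 12 higher), and 60 of these differed from 0d at no time point. Fitting only the libraries of 3d and 30d gave 336 calls, 187 lower and 149 higher, so the share of lower calls was 55.7% against 75% as reported, 67.3% without a filter and 63.3% in DESeq2. The replicate block gave 210 calls, 145 lower and 65 higher, and held 159 of the 160, but the replicate numbers do not pair the pools. Leaving out 1 library gave between 11 and 412 calls, 11 to 256 lower and 0 to 156 higher, and between 8 and 314 genes that differed from 0d at no time point. The lowest counts were without either 3d library and the highest without 30d replicate 1. Where a group keeps 1 library, it is assumed to vary like the other groups. Of the 160 genes, 71 kept their call in all 11 settings that leave out no library, and none of the called genes named here turned in direction. The counts of calls in each gene list under every setting were added after seeing the data. The cause of these differences was not tested. With 2 pools a group, small changes of variable genes may have gone uncalled, and how many was not measured.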
